A study of Mus musculus with 12 samples.

Results

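The mouse Ifi200 family and Aim2 were represented by 8 genes, Ifi202b, Ifi203, Ifi204, Ifi205, Ifi207, Ifi211, Mndal and Aim2. They were chosen by gene name from the 29428 genes of a deposited RNA-seq table, and all 8 passed the filter on low values. Aim2 passed it through STHdhQ111 libraries alone, since 6 libraries reached the required 0.5 TPM (transcript abundance scaled for length and library) and all of them were STHdhQ111 libraries. STHdhQ7 and STHdhQ111 are immortalized striatal cell lines from mice with 7 or 111 glutamines in huntingtin, labelled normal and mutant. The untreated groups are called Q7-C and Q111-C. In the treated groups Q7-T and Q111-T, cells were given 100 ng/mL murine interferon-gamma (IFNγ) together with 5 μg/mL lipopolysaccharide (LPS) for 24 h. Each of the 4 groups has 3 libraries. Each genotype is represented by 1 cell line, so that the length of the glutamine repeat and other differences between the lines cannot be told apart. The 3 libraries of a group are described as biological replicates with no further detail on the cultures, and p-values measure the spread between these samples.

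These genes encode PYHIN proteins, in which a HIN domain binds double-stranded DNA and a pyrin domain, where there is one, binds other pyrin proteins. AIM2 senses DNA in the cytosol, recruits the adaptor ASC (Pycard) and activates caspase-1, which matures IL-1β and IL-18 and cleaves gasdermin D. The Ifi200 genes have multiplied in the mouse, vary in number between strains and are known as interferon-inducible genes, best studied in macrophages and other leukocytes. IFNγ acts on GAS elements, while type I interferons, which LPS can induce through Tlr4, act through ISRE elements.

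All 8 genes lie in a single cluster on chromosome 1 of GRCm38, chr1:173350879-174031810, which spans 680.932 kb. The cluster holds 14 genes of the family, of which 6 are not among the 8 described (Ifi206, Ifi208, Ifi209, Ifi213, Ifi214 and the pseudogene Ifi203-ps). Aim2 stands at its proximal end on the plus strand, and the 7 Ifi200 genes are all on the minus strand. Ifi207, Ifi204, Mndal, Ifi211, Ifi203, Ifi202b and Ifi205 follow in that order. The span of Aim2 overlaps Cadm3 on the opposite strand by 16817 bp, and Cadm3 had at most 0.135 TPM in any library.

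**Figure D1:**
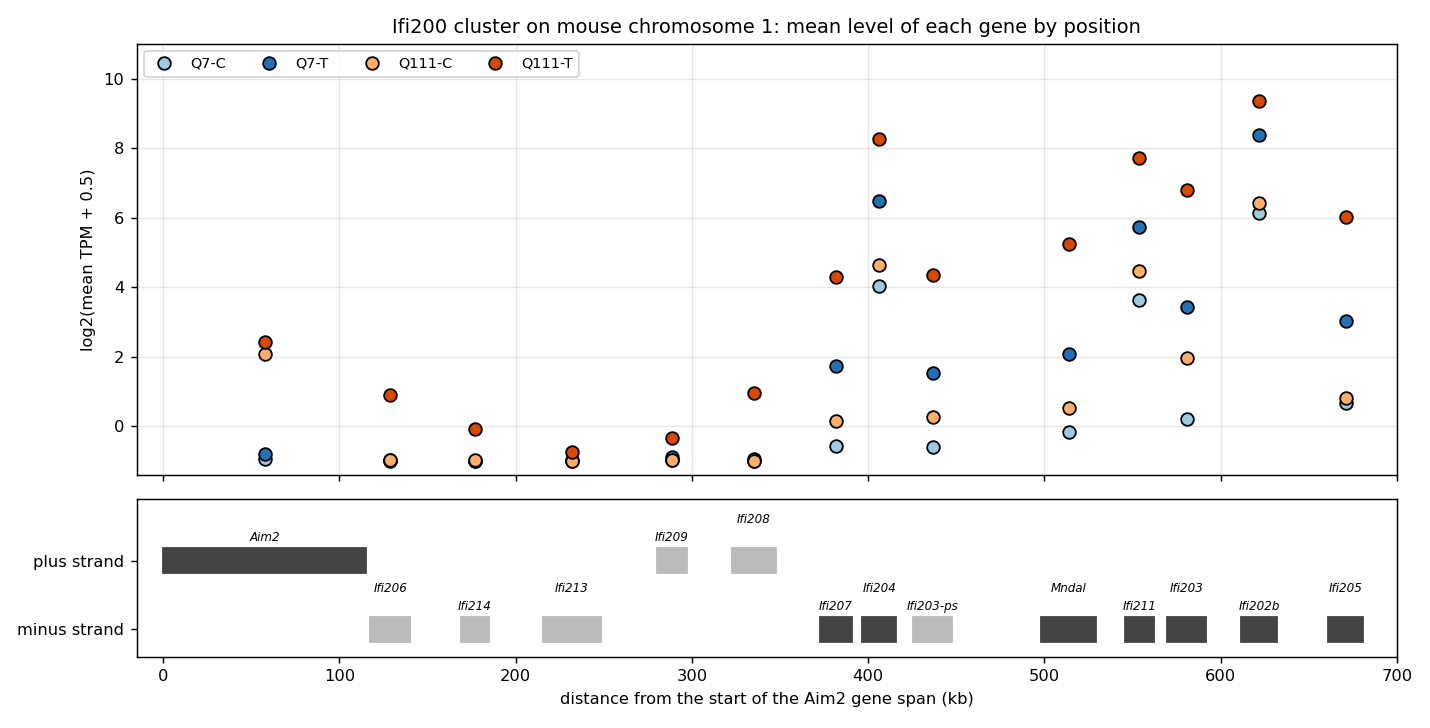
Mean level of each of the 14 cluster genes by position. The x axis is the distance in kb from the start of the Aim2 gene span, the y axis is log2(mean TPM + 0.5) over 3 libraries per group, and the lower panel draws gene spans by strand (dark for the 8 genes described, light for the other family genes). The 7 Ifi200 genes lie in the distal part, and Q111-T has the highest point at every gene.

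Promoter windows from RefSeq (GRCm38.p6, from 250 bases before to 50 after the start) were found for 7 of the 8 genes, and Ifi204 was not matched. Both strands were searched for GAAA-NN-GAAA as the core of an ISRE and for TTCNNNGAA as a GAS element. An ISRE core was present in at least 1 window of 5 of the 7 genes (Ifi203, Ifi205, Ifi207, Ifi211 and Mndal), as in 3.99% of all 27025 genes with a window (3.44% of 32851 windows). A GAS match was present in 1 of the 7 (Ifi202b), as in 9.55% of all genes with a window (8.3% of windows). The window of Aim2 held neither. No match says only that these letters are not in this window. The stretches below, of 60 bases each, show where matches lie. Whether the motifs bear on the response was not tested. Capitals mark the ISRE core or, in Ifi202b, the GAS match. The stretch of Aim2 is the one directly before its RefSeq start.
Ifi203 (chr1:173942493-173942552, minus strand, second window): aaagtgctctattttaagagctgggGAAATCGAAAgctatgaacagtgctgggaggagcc
Mndal (chr1:173880189-173880248, minus strand): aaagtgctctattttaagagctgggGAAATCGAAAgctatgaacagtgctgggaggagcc
Ifi211 (chr1:173913049-173913108, minus strand): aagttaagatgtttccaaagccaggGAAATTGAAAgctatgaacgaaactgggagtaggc
Ifi205 (chr1:174031855-174031914, minus strand): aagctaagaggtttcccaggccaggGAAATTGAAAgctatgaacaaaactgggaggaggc
Ifi207 (chr1:173741816-173741875, minus strand): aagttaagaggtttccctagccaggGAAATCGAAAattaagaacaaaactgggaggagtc
Ifi202b (chr1:173982958-173983017, minus strand): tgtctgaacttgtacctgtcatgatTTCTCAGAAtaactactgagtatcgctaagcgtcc
Aim2 (chr1:173420544-173420603, plus strand): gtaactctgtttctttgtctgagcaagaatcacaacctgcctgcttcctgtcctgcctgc

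The stretches of Ifi203 and Mndal were identical in all 60 bases. Those of Ifi211 and Ifi205 shared 54 of 60 positions, those of Ifi207 and Ifi205 shared 52, and those of Ifi207 and Ifi211 shared 50. Between the pair Ifi203 and Mndal and the other genes with an ISRE core, 39 to 41 positions were the same. The core began at -35 in Ifi203, -36 in Mndal, -37 in Ifi211 and -41 in Ifi207, counted from the RefSeq start. In Ifi205 it began at -134, and that window held a further match in the reverse letters (TTTC-NN-TTTC) at 24 bases after the start. Mndal also had a reverse match at -54 in its second window. Over the whole windows, Ifi207 and Ifi211 had 85.9% identical bases.

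The libraries summed to between 57505990 and 96417834 estimated counts. Low counts favoured multiples of 4, from which 1 read pair was taken as about 4 counts, and 12 counts (3 read pairs) per library were set as the floor of detection for a group. This limit covers counting error only. In Q7-C replicate 1, Q7-T replicate 2 and Q111-T replicate 2, the gene counts stood apart from those of their group mates (chi-square per degree of freedom from 45.5 to 187, against 4.88 to 14.3 for the other pairs within groups). Results that differ without these 3 libraries are given with and without them. The lines are labelled neuronal. Of 10 neuron markers 7 were in the table, and their summed level was 22.6 to 27.7 TPM in Q7-C, 58.7 to 86.3 TPM in Q7-T, 10.01 to 12.05 TPM in Q111-C and 29.6 to 33.5 TPM in Q111-T. Tubb3 (group means from 3.91 to 74.6 TPM) and Map2 (from 2.13 to 7.93 TPM) were over the floor in all 12 libraries and Ppp1r1b in 11, whereas Snap25, Syt1 and Gad2 were not over it in any library. The 5 astrocyte markers summed to 1.04 to 1.93 TPM in Q7-C and 1.29 to 1.77 TPM in Q7-T, but to 8.97 to 11.03 TPM in Q111-C and 3.94 to 4.94 TPM in Q111-T, most of it Slc1a3. All 6 mesenchymal markers were over the floor in every library. They summed to 4243 to 4838 TPM in Q7-C, 3285 to 3713 TPM in Q7-T, 3671 to 3829 TPM in Q111-C and 1502 to 1622 TPM in Q111-T, and so were lowest in the treated STHdhQ111 cells. Among them, Acta2 had a mean of 1670 TPM in Q7-C against 43.7 TPM in Q111-C, while Col1a1 had 265 against 791 TPM. Of 9 markers of macrophages or microglia, 6 were in the table, and Ptprc, Adgre1 and Spi1 were not over the floor in any library. Cd68 and Csf1r were over it in all 12 libraries, Csf1r with group means from 0.128 TPM (Q7-T) to 0.361 TPM (Q111-T), and Itgam was over it in 1. The summed level of the 6, nearly all of it Cd68, was 5.93 to 8.38 TPM in untreated and 8.81 to 15.3 TPM in treated STHdhQ7 libraries, and 14.4 to 16.8 TPM in untreated and 40.8 to 58.0 TPM in treated STHdhQ111 libraries. The part of these 4 marker lists in the results was not tested. In bulk RNA, more cells with a transcript and more transcript per cell cannot be told apart.

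IFNγ/LPS treatment upregulated the 7 Ifi200 genes in both lines, by 2.24 to 4.31 on the log2 scale in STHdhQ7 cells and by 3.03 to 5.79 in STHdhQ111 cells. The size depended on the method, as STHdhQ7 values over the alternatives ran from 1.71 to 4.84 for Ifi207 and from 1.71 to 3.84 for Mndal. Aim2 followed another pattern, as it was read in STHdhQ111 cells with and without treatment and was close to absent from STHdhQ7 cells. After treatment, 6 of the 7 Ifi200 genes were at least 2-fold higher in STHdhQ111 cells than in STHdhQ7 cells. Without treatment, Ifi203 alone of the 7 was called higher in STHdhQ111 cells, and Ifi207 had a fitted difference over 2-fold that did not pass the adjusted p.

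**Figure D2:**
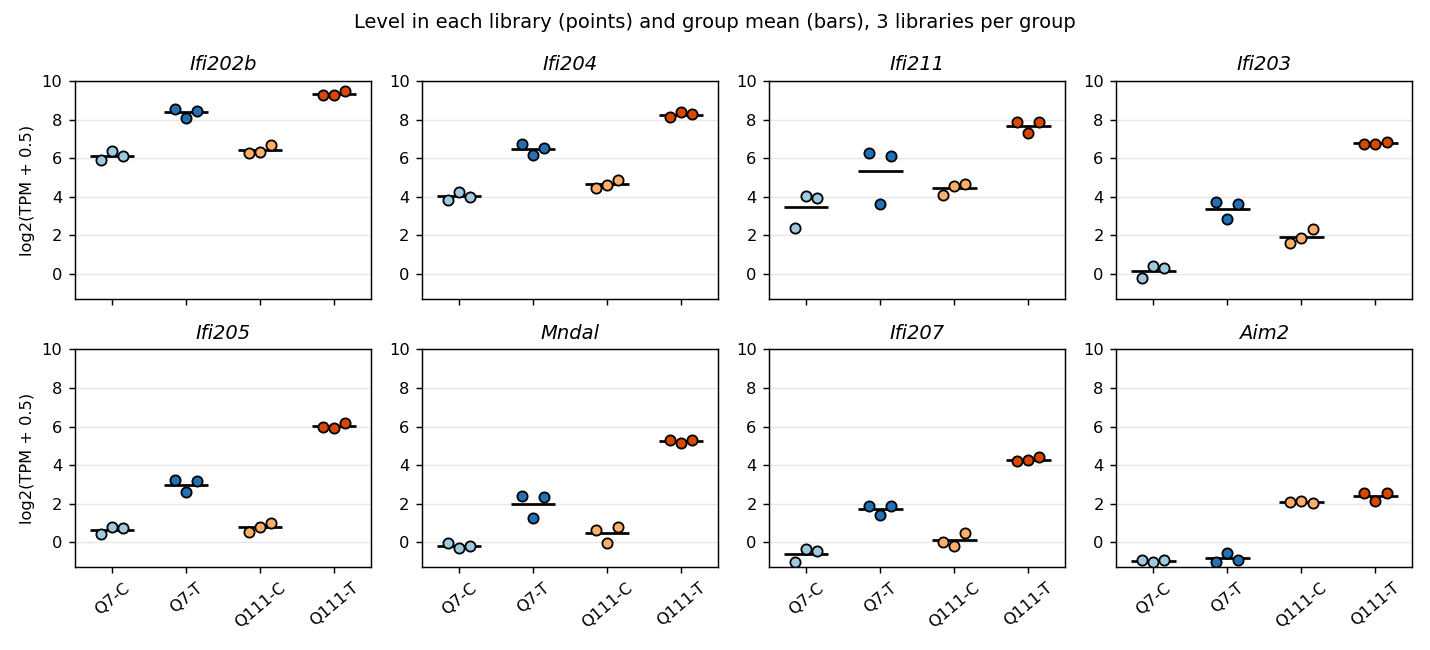
Level of each gene in each library. The y axis is log2(TPM + 0.5), points are libraries, bars are group means of the plotted values and each group has 3 libraries. The 7 Ifi200 genes step up with treatment in both lines and Aim2 separates the lines, while the lowest Q7-T point of Ifi211 (11.7 TPM) falls among its Q7-C points.

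Ifi202b (ENSMUSG00000026535, chr1:173962568-173982744) encodes a protein with HIN domains but no pyrin domain, which is known to bind DNA and to restrain AIM2. It was the most abundant of the 8 genes in every group. Its level was 58.9, 82.7 and 69.4 TPM in the Q7-C libraries and 377, 276 and 348 TPM in the Q7-T libraries. In STHdhQ111 cells it was 77.6, 79.9 and 100.9 TPM in Q111-C and 616, 628 and 715 TPM in Q111-T. Treated and untreated libraries did not overlap in either line, and the untreated libraries of the lines did overlap. Treatment raised it by 2.44 on the log2 scale in STHdhQ7 cells (standard error 0.167, edgeR adjusted p = 2.32e-06) and by 3.03 in STHdhQ111 cells (0.171, adjusted p = 4.06e-07). Q111-T exceeded Q7-T by 0.56 (edgeR adjusted p = 0.0163, from 0.000958 to 0.0634 over the alternatives), which is under the 2-fold threshold. Without treatment the difference was -0.02 (95% interval -0.37 to 0.32, edgeR), and its sign turned with the scaling, to 0.14 with library totals and to 0.29 on log2(TPM + 0.5).

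Ifi204 (ENSMUSG00000073489, chr1:173747293-173766943) encodes a DNA sensor that signals through STING. It had 13.95, 18.4 and 15.2 TPM in Q7-C and 105, 70.5 and 92.6 TPM in Q7-T. The Q111-C libraries had 21.2, 23.8 and 28.9 TPM and the Q111-T libraries 277, 339.7 and 308 TPM. The 4 groups of 3 libraries did not overlap, in the order Q7-C, Q111-C, Q7-T and Q111-T. Treatment raised it by 2.67 on the log2 scale in the STHdhQ7 line (edgeR adjusted p = 3.74e-06) and by 3.76 in the STHdhQ111 line (adjusted p = 3.08e-07). Q111-T was above Q7-T by 1.40 (standard error 0.184, edgeR adjusted p = 1.43e-04), whereas the untreated difference of 0.31 did not pass (95% interval -0.08 to 0.71, adjusted p = 0.263).

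Ifi203 (ENSMUSG00000039997, chr1:173920407-173942672), a pyrin and HIN domain gene of the family, was the only Ifi200 gene among the 7 that was called between the untreated lines. It had 0.377, 0.822 and 0.739 TPM in Q7-C against 2.52, 3.14 and 4.47 TPM in Q111-C. After treatment it had 12.8, 6.64 and 11.7 TPM in Q7-T against 106, 108 and 116 TPM in Q111-T. No library of any group overlapped with another group. The log2 fold change was 2.10 in Q111-C vs. Q7-C (standard error 0.225, edgeR adjusted p = 4.25e-05) and 3.04 in Q111-T vs. Q7-T (0.228, adjusted p = 2.58e-06). Treatment raised it by 4.18 in STHdhQ7 cells (edgeR adjusted p = 6.67e-07) and by 5.13 in STHdhQ111 cells (adjusted p = 2.53e-07).

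Ifi205 (ENSMUSG00000054203, chr1:174011998-174031810) started from low, overlapping levels in the lines and ended far apart. In the untreated libraries it had 0.862, 1.23 and 1.19 TPM (Q7-C) and 0.962, 1.25 and 1.52 TPM (Q111-C), which overlapped. The treated libraries had 8.88, 5.54 and 8.53 TPM in Q7-T and 62.6, 60.5 and 71.5 TPM in Q111-T, where every STHdhQ111 library lay above every STHdhQ7 library. The untreated difference was -0.11 on the log2 scale (95% interval -0.46 to 0.24, edgeR adjusted p = 0.685), and its sign turned to 0.05 with library totals and to 0.13 on log2(TPM + 0.5). The treated difference was 2.70 (standard error 0.163, edgeR adjusted p = 6.24e-07). Treatment raised Ifi205 by 2.98 in STHdhQ7 cells (edgeR adjusted p = 5.18e-07) and by 5.79 in STHdhQ111 cells (adjusted p = 5.15e-08), the largest response among the 8 genes in this fit.

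Mndal (ENSMUSG00000090272, chr1:173849126-173880187), named for its likeness to the human myeloid nuclear differentiation antigen, had 0.469, 0.304 and 0.377 TPM in Q7-C and 1.09, 0.483 and 1.22 TPM in Q111-C. Treated libraries had 4.70, 1.86 and 4.66 TPM in Q7-T and 38.7, 35.1 and 39.3 TPM in Q111-T. The groups did not overlap, although the lowest Q111-C library lay close to the highest Q7-C library. The response to treatment was 3.33 on the log2 scale for STHdhQ7 (standard error 0.380, edgeR adjusted p = 1.84e-04) and 5.42 for STHdhQ111 (0.408, adjusted p = 3.38e-06). Among treated cells STHdhQ111 exceeded STHdhQ7 by 3.01 (edgeR adjusted p = 7.91e-05). The untreated difference of 0.92 did not pass (95% interval 0.12 to 1.72, edgeR adjusted p = 0.0974), but became 1.28 (adjusted p = 0.0350) without Q7-C replicate 1 and 1.27 (adjusted p = 0.0159) without Q111-C replicate 2.

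Ifi207 (ENSMUSG00000073490, chr1:173723427-173741747), a family gene with both domains, was the lowest of the 7 Ifi200 genes in every group. It was listed at 0 in Q7-C replicate 1 and had 0.280 and 0.228 TPM in the other Q7-C libraries, against 0.526, 0.393 and 0.897 TPM in Q111-C. With treatment it reached 3.20, 2.13 and 3.16 TPM in Q7-T and 17.9, 18.7 and 20.8 TPM in Q111-T. Here too the groups did not overlap, but the low counts gave wide intervals. Its response was 4.31 on the log2 scale for STHdhQ7 (95% interval 2.76 to 5.87, edgeR adjusted p = 0.00302) and 5.07 for STHdhQ111 (3.51 to 6.63, adjusted p = 3.87e-04). The STHdhQ7 call was lost when only the libraries compared were fitted, at 4.33 (edgeR adjusted p = 0.105). In Q111-T vs. Q7-T it was 2.37 (edgeR adjusted p = 0.0115). The untreated difference was 1.61 (0.15 to 3.08, edgeR adjusted p = 0.114) and passed without Q7-C replicate 1, at 1.08 (adjusted p = 0.0419). With all libraries it passed with DESeq2, at 1.65 (adjusted p = 0.0270), and with limma on log2(TPM + 0.1), at 1.54 (adjusted p = 0.0363). Over all alternatives it passed in 4 and not in 21, with values from 0.45 to 2.18 (adjusted p from 0.0247 to 0.318).

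Ifi211 (ENSMUSG00000026536, chr1:173896345-173913046) was abundant and varied widely between libraries of a group. Its levels were 4.79, 16.2 and 14.7 TPM in Q7-C and 75.9, 11.7 and 69.1 TPM in Q7-T. The STHdhQ111 libraries had 16.5, 23.0 and 25.03 TPM untreated and 232, 160.1 and 236 TPM treated. The lowest value of Q7-C, Q7-T and Q111-T was in each case that of the library that stood apart from its group. Because of Q7-T replicate 2, treated and untreated STHdhQ7 libraries overlapped. STHdhQ7 cells had a log2 fold change with treatment of 2.24 (standard error 0.462, edgeR adjusted p = 0.0138) and STHdhQ111 cells of 3.37 (0.483, adjusted p = 4.59e-04). The STHdhQ7 response did not pass with limma on log2(TPM + 0.5), at 1.86 (adjusted p = 0.179), nor when only the libraries compared were fitted, at 2.25 (edgeR adjusted p = 0.153). Q111-T exceeded Q7-T by 1.74 (edgeR adjusted p = 0.0107), and the untreated difference of 0.61 did not pass (95% interval -0.36 to 1.59, edgeR adjusted p = 0.387).

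Aim2 (ENSMUSG00000037860, chr1:173350879-173466040), the inflammasome sensor, had 3.71, 3.88 and 3.56 TPM in Q111-C and 5.37, 3.91 and 5.39 TPM in Q111-T. STHdhQ7 cells had 4, 0 and 4 estimated counts in Q7-C, all under the floor, and 0, 24 and 7 in Q7-T, where replicate 2 alone was over it. The same libraries of STHdhQ111 cells held 410 to 681 counts. Q111-C was at least 33.9-fold higher than Q7-C, computed against the mean floor of the Q7-C libraries. As Aim2 passed the filter only through STHdhQ111 libraries, its calls between the lines were favoured by that filter and are given with no p. The fitted log2 fold change of Q111-T vs. Q7-T was 5.40 (standard error 1.00). It rested on the 24 counts of Q7-T replicate 2, without which Q7-T was not detected and the fitted value became 7.49, which is no bound. In STHdhQ111 cells, treated libraries lay above untreated ones by a narrow margin, and the log2 fold change of 0.48 did not pass (95% interval -1.27 to 2.23, edgeR adjusted p = 0.773, from 0.0368 to 0.872 over the alternatives). The lowest of these came from the fit of only the libraries compared, where the change was 0.48 and so under the 2-fold threshold as in every alternative. No fold with treatment is given in STHdhQ7 cells.

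In Q7-T vs. Q7-C, 7 of the 8 genes were called up at an edgeR adjusted p under 0.05 and at least 2-fold, against 2.93% of the 16127 genes tested, and 0 were called down, against 1.11%. All except Aim2 were called, and with only the libraries compared in the fit the calls of Ifi207 and Ifi211 were lost, leaving 5. Ifi207 and Mndal passed the filter only with treated libraries, since among untreated ones only Q111-C replicates 1 and 3 reached 0.5 TPM. Their treatment calls were thus favoured by the filter, although the 3 treated libraries of either line alone sufficed to pass. In Q111-T vs. Q111-C the same 7 were called up, against 8.28%, and 0 down, against 2.96%. Every treated library lay above every untreated library for 6 of the 8 genes in STHdhQ7 cells, as against 5.55% of all genes tested, and for all 8 in STHdhQ111 cells, as against 19.8%. Over the 8 genes the median change was 2.83 (log2) for STHdhQ7 and 4.41 for STHdhQ111, with Aim2 at its fitted value and medians over all genes tested of 0.0033 and -0.0050. For a single gene the two-sided exact permutation test of 3 libraries against 3 cannot give a p under 0.1.

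Between the untreated lines, 2 of the 8 genes were called up (Ifi203 and Aim2), against 7.62% of all genes tested, and 0 were called down, against 7.61%. The call of Aim2 was favoured by the filter, and Ifi203 was the call among the other 7. Every Q111-C library exceeded every Q7-C library in TPM for 6 of the 8 genes, Ifi202b and Ifi205 being the exceptions, but this held for 38.8% of all genes tested. Without the 3 libraries that stood apart, 4 of the 8 were called, with Ifi207 at 1.08 (edgeR adjusted p = 0.0247) and Mndal at 1.28 (adjusted p = 0.0149). After treatment, 7 of the 8 genes were called up in Q111-T vs. Q7-T, against 13.3%, and 0 down, against 11.2%. Ifi202b, under 2-fold, was the gene not called, and Aim2 was again favoured by the filter. All 8 genes had every Q111-T library above every Q7-T library in TPM, as against 33.9% of all genes tested. Ratios of mean TPM between the lines were larger than the fitted folds for the 7 Ifi200 genes. With limma on log2(TPM + 0.5) differences were not always larger, as Aim2 had 3.24 in Q111-T vs. Q7-T against 5.40 in the fit. On that scale the median of all genes lay 0.27 (untreated) and 0.34 (treated) higher in STHdhQ111 cells. After TMM scaling it lay at -0.02 and -0.03. Of all genes called, the share higher in STHdhQ111 cells moved accordingly, from 50.04% to 66.0% untreated and from 54.2% to 79.1% treated with limma on log2(TPM + 0.5).

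**Figure D3:**
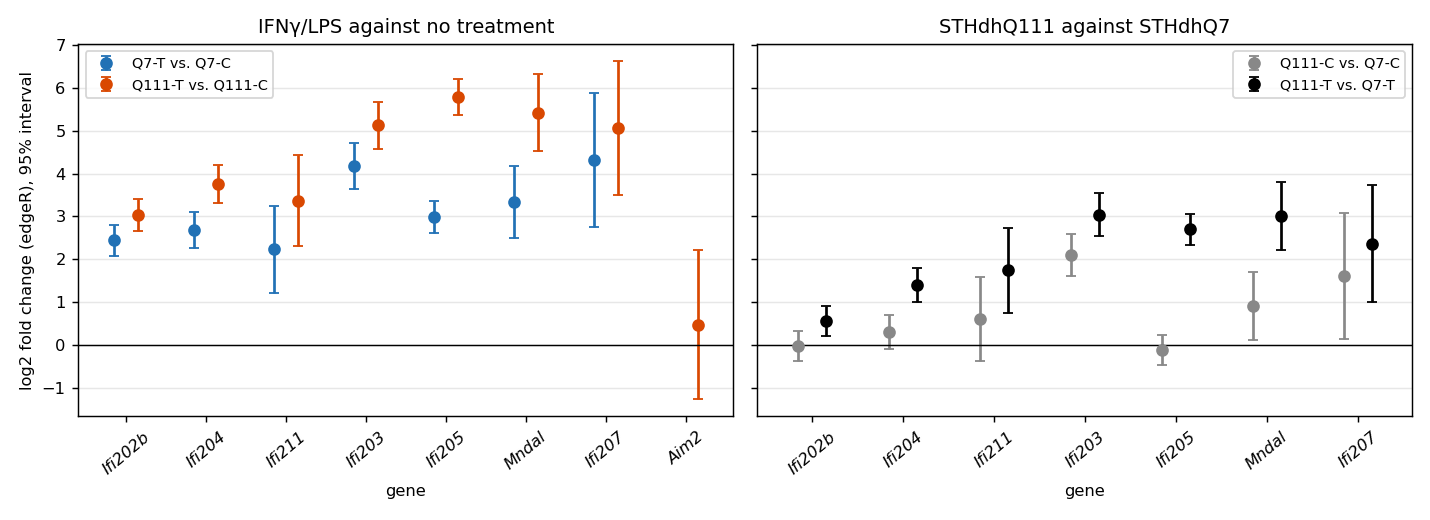
Log2 fold changes of the edgeR fit with 95% intervals, on the left for treatment within each line and on the right for STHdhQ111 against STHdhQ7 cells. Aim2 is drawn only for Q111-T vs. Q111-C, since Q7-C is under the floor and Q7-T close to it. All Ifi200 intervals on the left lie above 0, and Ifi205 has 2.98 in STHdhQ7 cells against 5.79 in STHdhQ111 cells.

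Whether the response itself differed between the lines was tested with the interaction of line and treatment. For 3 of the 8 genes the response was called larger in STHdhQ111 cells, against 3.52% of all genes tested, and for 0 smaller, against 1.2%. Ifi205 had the largest difference, with 2.81 on the log2 scale (standard error 0.225, 95% interval 2.32 to 3.30, edgeR adjusted p = 1.05e-04), and it was called under every alternative. Mndal differed by 2.09 (standard error 0.499, edgeR adjusted p = 0.0323) and Ifi204 by 1.09 (0.256, adjusted p = 0.0300). Both calls were near the threshold, and that of Ifi204 was lost under the replicate block, at 1.07 (edgeR adjusted p = 0.0530). With libraries left out in turn, Mndal reached an edgeR adjusted p of 0.0736 (without Q111-T replicate 2) and was lost in 7 of 12 fits, and Ifi204 reached 0.102 (without Q111-C replicate 1) and was lost in 7 of 12.

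The other Ifi200 genes did not pass the interaction test, which does not show equal responses. The difference was 0.58 for Ifi202b (95% interval 0.09 to 1.08, edgeR adjusted p = 0.170), 0.94 for Ifi203 (0.28 to 1.61, adjusted p = 0.102), 1.13 for Ifi211 (-0.24 to 2.51, adjusted p = 0.350) and 0.76 for Ifi207 (-1.22 to 2.73, adjusted p = 0.701). All 7 values were above 0. With limma on log2(TPM + 0.5), Ifi203 passed at 1.64 (adjusted p = 0.0315) and Ifi207 at 1.85 (adjusted p = 0.00898), as both did with log2(TPM + 1) and with quantile normalization. With log2(TPM + 0.1) neither passed, at 1.21 for Ifi203 (limma adjusted p = 0.207) and 1.19 for Ifi207 (adjusted p = 0.428). Without the 3 libraries that stood apart, Ifi203 passed with 1.02 (edgeR adjusted p = 0.0265) and Ifi211 with 1.16 (adjusted p = 0.00350), while Ifi204 fell under 2-fold at 0.96 (adjusted p = 0.00622). No value is given for Aim2, which was not detected in Q7-C.

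The order of levels within a group can be read from TPM, which is scaled for transcript length. Ifi202b came first in every group, followed by Ifi204 and then Ifi211. In Q7-C, Ifi202b had 70.3 ± 11.9 TPM (SD, n = 3), and Ifi204 with 15.9 ± 2.29 and Ifi211 with 11.9 ± 6.18 TPM overlapped with each other. Ifi205, Ifi203, Mndal and Ifi207 followed at 1.09 TPM or less, with Ifi203 and Mndal overlapping. In Q7-T, Ifi204 and Ifi211 overlapped, as did Ifi211 and Ifi203, Ifi203 and Ifi205, and Mndal and Ifi207. In Q111-C, Ifi204 and Ifi211 overlapped, as did Ifi205 and Mndal, and Mndal and Ifi207. Aim2 came next after Ifi211 there with 3.72 ± 0.160 TPM (SD, n = 3) and overlapped with Ifi203 (3.38 ± 0.997 TPM). In Q111-T no neighbours in the order overlapped, from Ifi202b with 653 ± 54.1 TPM (SD, n = 3) through Ifi204, Ifi211, Ifi203, Ifi205, Mndal and Ifi207 to Aim2 with 4.89 ± 0.849 TPM.

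The 8 genes together came to 100.4 ± 20.3 TPM (Q7-C) and 499.8 ± 111.6 TPM (Q7-T) in STHdhQ7 cells, and to 142.2 ± 21.9 TPM (Q111-C) and 1407 ± 90.6 TPM (Q111-T) in STHdhQ111 cells (SD, n = 3). The make-up of this sum differed between the groups. Ifi202b gave 70.4 ± 3.29% of it in untreated and 67.5 ± 5.34% in treated STHdhQ7 cells, and 60.6 ± 1.86% in untreated but 46.4 ± 0.938% in treated STHdhQ111 cells (SD, n = 3). Ifi203 had 0.629% untreated and 2.05% treated in STHdhQ7 cells, and 2.34% untreated and 7.81% treated in STHdhQ111 cells. The share of Ifi205 was 1.09% in Q7-C, 1.53% in Q7-T and 0.871% in Q111-C, against 4.60% in Q111-T. Aim2 had 2.66% in Q111-C and 0.347% in Q111-T. Shares of a sum move against each other, and they were not tested.

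**Figure D4:**
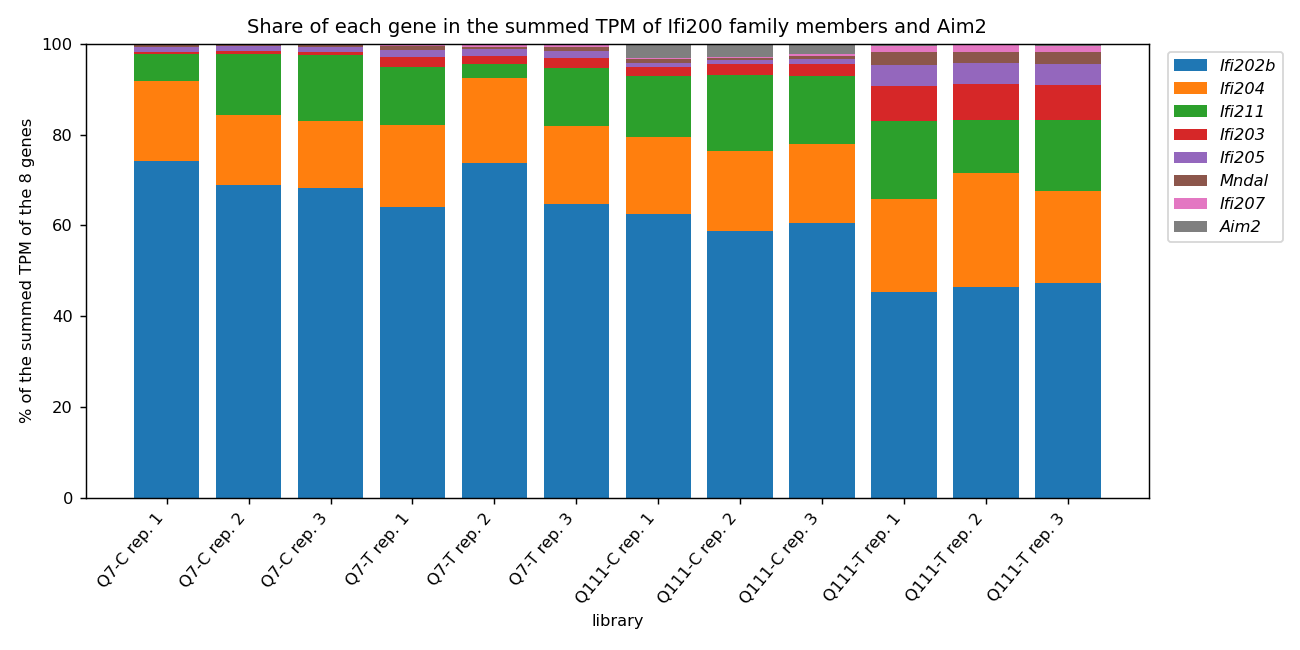
Share of each of the 8 genes in their summed TPM, 1 bar per library. The y axis is percent of the summed TPM. Ifi202b takes 45.4 to 47.3% in the Q111-T libraries and at least 58.8% in every other library, and Ifi203, Ifi205 and Mndal are widest in Q111-T.

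Because family members are similar, reads can fit more than 1 gene. Transcript sequences from GENCODE M21, which are not those of the authors' merged assembly, were cut into every run of 100 bases. Runs found in another family gene were counted. Ifi202b and Aim2 shared 0% of theirs, Ifi207 0.27%, Ifi203 2.93%, Mndal 5.89%, Ifi204 10.7% and Ifi205 15.0%. Ifi211 shared 56.9%, of which the largest parts were with Ifi205 (37.2% of its runs) and Ifi204 (19.6%). Runs of 50 bases were shared more often, at 5.47% for Ifi207, 12.35% for Ifi203, 17.7% for Mndal, 18.6% for Ifi205, 19.2% for Ifi204 and 72.8% for Ifi211, and again at 0% for Ifi202b and Aim2. The values of Ifi211 are therefore uncertain, as the authors' method could divide its reads with these genes. The other genes that share runs are touched less, but are not free of it. Summed as 1 row on TMM-scaled CPM, the 8 genes rose 6.01-fold in STHdhQ7 cells and 12.8-fold in STHdhQ111 cells, and Q111-T exceeded Q7-T 2.64-fold, values that do not depend on how reads were divided within the 8 genes.

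**Figure D5:**
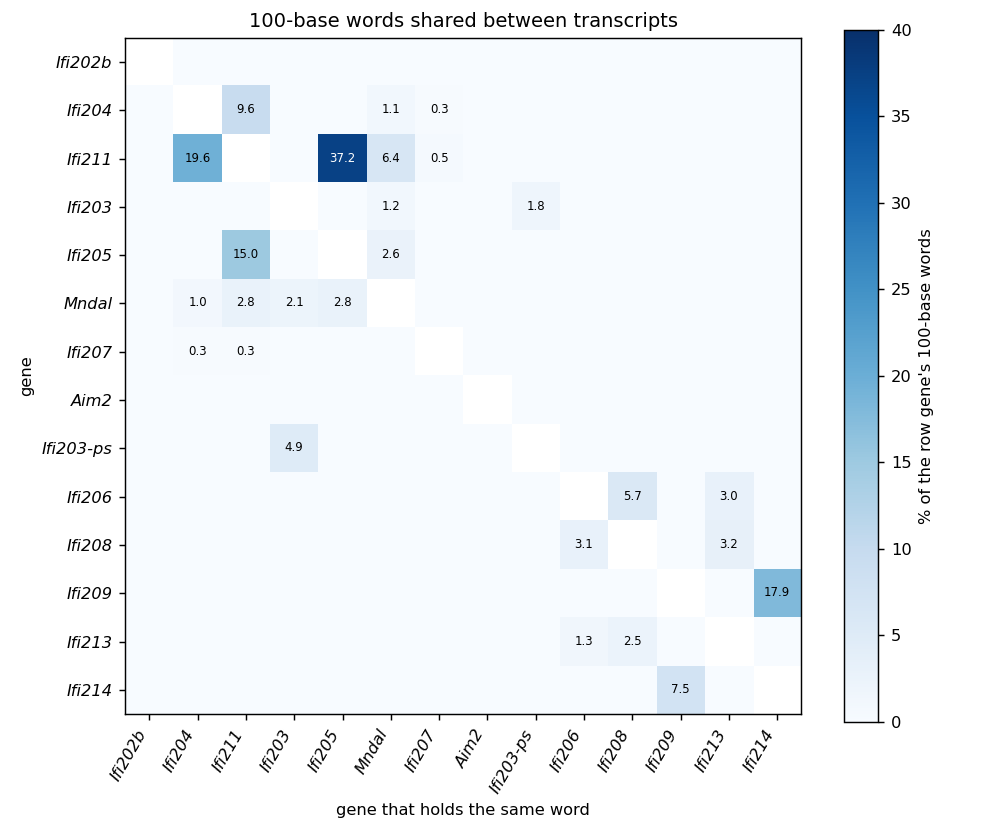
Share of the 100-base runs of each gene (rows) that also occur in another family gene (columns), in percent. Ifi211 shares most with Ifi205 (37.2%) and Ifi204 (19.6%), and the rows of Ifi202b and Aim2 are empty.

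Of the 6 remaining genes of the cluster, 3 passed the filter, Ifi206 and Ifi208 only through Q111-T and Ifi203-ps only with treated libraries. The pseudogene Ifi203-ps went from a mean of 0.164 to 2.36 TPM with treatment in STHdhQ7 cells and from 0.711 to 19.97 TPM in STHdhQ111 cells. Treatment raised it by 4.04 on the log2 scale in STHdhQ7 cells (edgeR adjusted p = 0.00512) and by 4.88 in STHdhQ111 cells (adjusted p = 5.25e-04). Ifi206 had 1.83, 0.835 and 1.48 TPM and Ifi208 had 1.44, 1.21 and 1.63 TPM in Q111-T, and neither was detected in any other group. Relative to Q111-C, they were at least 12.8-fold and 23.0-fold higher in Q111-T, each computed against the mean floor of the Q111-C libraries. Ifi209, Ifi213 and Ifi214 had at most 0.548 TPM in any library and were not tested. Their highest values were all in Q111-T.

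The partners of AIM2 and other genes of cytosolic DNA sensing and cell death formed a list of 16 genes, of which 12 were tested. In STHdhQ7 cells 6 of the 12 were called up with treatment (2.93% of all genes tested) and 0 down (1.11%), and in STHdhQ111 cells 7 up (8.28%) and 0 down (2.96%), with median log2 fold changes of 1.30 and 1.22. The adaptor Pycard had at most 0.106 TPM and the sensor Nlrp3 at most 0.366 TPM in any library, and neither they nor Nlrc4 were tested. Il1b was not analysed here. Casp1, which cleaves the precursors of IL-1β and IL-18, had 6.19, 5.37 and 6.52 TPM in Q7-T and 0.452, 0.891 and 0.848 TPM in Q111-T. Its fitted difference between the treated lines was opposite in sign to that of Aim2, with a log2 fold change of -3.43 in Q111-T vs. Q7-T. Without its Q7-T libraries Casp1 would not have passed the filter on low values. That favoured its calls in this comparison and in Q7-T vs. Q7-C, and no p is given. Casp1 was the single gene of the list called lower in Q111-T, with 5 called higher (11.2% and 13.3% of all genes tested). Of these 5, Cgas passed the filter only through STHdhQ111 libraries. Il18 had 13.98, 17.5 and 18.6 TPM in Q111-T and 5.65, 4.10 and 5.40 TPM in Q7-T (1.32, edgeR adjusted p = 0.00246).

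Gsdmd, the pore-forming protein of pyroptosis, rose with treatment by 2.09 in STHdhQ7 cells (edgeR adjusted p = 1.10e-04) and by 1.64 in STHdhQ111 cells (adjusted p = 2.86e-04). Zbp1, a sensor of Z-form nucleic acids, rose by 6.42 (edgeR adjusted p = 6.16e-06) and by 6.57 (adjusted p = 3.13e-06). Between the untreated lines 5 of the 12 were called higher in STHdhQ111 cells (7.62% of all genes tested) and 0 lower (7.61%), with a median of 0.62. Cgas, the enzyme that makes the STING ligand from DNA, had 9.46, 9.54 and 10.5 TPM in Q111-C and 0.025, 0.179 and 0.033 TPM in Q7-C, so that, like Aim2, it separated the untreated lines. Like Aim2 too, it passed the filter only through STHdhQ111 libraries, which favoured its call, and the other 4 called were Casp4, Zbp1, Ripk3 and Mlkl. Ripk3 and Mlkl, the kinase and effector of necroptosis, were 6.49 (edgeR adjusted p = 7.11e-07) and 5.06 (adjusted p = 1.01e-07) higher on the log2 scale in Q111-C. In the interaction 0 of the 12 were called larger (3.52% of all genes tested) and 2 smaller (1.2%) in STHdhQ111 cells (Casp4 with -1.71, edgeR adjusted p = 0.0398, and Mlkl with -1.34, adjusted p = 0.0110).

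Receptors, kinases and transcription factors of interferon signalling formed a list of 12 genes, and for 0 of them was the response called larger in STHdhQ111 cells (3.52% of all genes tested). All 12 were tested. Of these, 7 were called up with treatment in STHdhQ7 cells (2.93% of all genes tested) and 8 in STHdhQ111 cells (8.28%), with 0 down (1.11% and 2.96%) and medians of 3.18 and 2.48. Between the untreated lines 7 of the 12 were called higher in STHdhQ111 cells (7.62%) and 0 lower (7.61%), among them Irf7 by 3.95 (edgeR adjusted p = 3.62e-06) and Irf9 by 2.43 (adjusted p = 9.74e-07). Irf7, a factor of the type I interferon response, had 18.3, 21.9 and 20.4 TPM in Q7-T and 289, 245 and 276 TPM in Q111-T, which did not overlap.

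Across the 12 libraries, the log2 levels of the 7 Ifi200 genes were correlated with each other with a Pearson r between 0.888 (Ifi202b and Ifi211) and 0.991. Aim2 had an r between 0.304 and 0.583 with them. These points share the same 4 groups and libraries, so the values are a description. By the same measure over all genes tested other than the 8, the gene most like Ifi202b was Fas (r = 0.999), that most like Ifi203 was Mmp3 (0.997), and that most like Ifi204 was Ccl2 (0.994). Crem was closest to Ifi205 (0.997), Ifi203-ps to Ifi207 (0.994), Tnfaip3 to Ifi211 (0.985) and Ifit1bl2 to Mndal (0.992). The closest to Aim2 were Fam83g and Kcnk5 (both 0.998), with mean levels of 4.68 and 4.76 TPM in Q111-C and 0.0100 and 0.0101 TPM in Q7-C.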

How the data were processed

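Poly(A) RNA of both lines was sequenced in 12 stranded, paired-end libraries. According to the methods and the submitters' processing notes, the authors trimmed reads with Cutadapt, mapped them to GRCm38 with HISAT2, merged StringTie assemblies and estimated expression with StringTie and Ballgown (versions are not given in the sources used here). The authors deposited TPM values, scaled for transcript length and library, and estimated counts as whole numbers without normalization. How reads that fit several genes were divided is not given in the sources used here.

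Groups were taken from the sample labels. The 16127 genes that reached 0.5 TPM in 3 or more libraries were tested. Counts were scaled by TMM and tested with edgeR 4.0.16 (quasi-likelihood, R 4.3.3) in a single fit of all 12 libraries with a mean per group. Adjusted p is Benjamini-Hochberg over all genes tested, and a gene was called at an adjusted p under 0.05 and at least 2-fold. Standard errors and 95% intervals come from that fit. The smallest total of estimated counts was 57505990 and the largest 96417834. Alternatives were DESeq2 1.42.0, limma 3.58.1 on log2(TPM + pseudocount), with and without quantile normalization, other filters, other scaling, counts divided by 4, only the libraries compared, a replicate block, and libraries left out. Leaving out together the 3 libraries that stood apart was chosen after seeing the data. The procedure was tested on simulated data. No pair of libraries appeared to be a repeat deposit (lowest chi-square per degree of freedom 4.88).

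Replicate numbers were not used to pair the samples in the main fit. Same-numbered libraries of different groups had correlations of their deviations from -0.416 to 0.303, and other pairs from -0.452 to 0.456. This cannot exclude that same-numbered libraries were handled together. The genes and the lists were chosen with earlier results of these data known. The genes named are the 8 members, the other genes of the cluster, the genes of the lists and, for each member, the genes with the highest Pearson r of log2(TPM + 0.5). The values of 1 listed gene are not reported here. Promoter sequences are from RefSeq (GRCm38.p6). Python 3.11.15, pandas 2.3.3, scipy 1.17.1, matplotlib 3.10.9 and Biopython 1.88 were used.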

Additional observations from a re-analysis of the deposited data

Results flagged for a closer look

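The responses of 3 genes to IFNγ/LPS differed between the lines by the interaction test over all genes (STHdhQ111 response minus STHdhQ7 response, log2 scale, edgeR). The difference was 2.81 for Ifi205, 2.09 for Mndal and 1.09 for Ifi204. Ifi205 was called under every alternative run, whereas Mndal and Ifi204 each lost the call in 7 of 12 fits with a library left out, and Ifi204 also under the replicate block (edgeR adjusted p = 0.0530). In all 3 cases the response was larger in STHdhQ111 cells, which was called for 3.52% of all genes tested. Each of the 3 Q111-T libraries lay above each of the 3 Q7-T libraries in TPM, as for all 8 genes described and for 33.9% of all genes tested.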

How the results depend on the processing

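Of the values recomputed under the alternatives, 894 kept their direction and their side of the threshold or stayed close to it, 21 lost the call, 17 gained it, 19 turned sign and 4 summed ratios moved. All sign changes concern differences between the untreated lines that were not called. Ifi202b changed from -0.02 to 0.00917 with a minimum of 1 TPM, 0.14 with library totals, 0.29, 0.30 and 0.29 with limma and pseudocounts of 0.5, 0.1 and 1, 0.11 with quantile normalization and 0.00691 without the 3 libraries that stood apart, and ranged from -0.11 to 0.0749 with a library left out. Ifi205 changed from -0.11 to 0.046, 0.13, 0.17 and 0.0994 with library totals and the same limma fits, and ranged from -0.24 to 0.0623 with a library left out.

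The number of genes called stayed at 7 for the STHdhQ111 response and for the treated lines under every alternative run, and was 5 to 7 for the STHdhQ7 response. Between the untreated lines it was 4 without the 3 libraries and from 2 to 4 with a library left out. In the interaction it was 5 with limma on log2(TPM + 0.5), on log2(TPM + 1) and on quantile-normalized values, and from 1 to 4 with a library left out. The replicate block lost Ifi204 in the interaction (adjusted p = 0.0530) and no other member call, and lowered the calls over all genes in that comparison from 760 to 626. DESeq2 called 1303 there, and the fit without the 3 libraries 1588. The cause was not tested. Fits of only the libraries compared lost Ifi207 and Ifi211 in Q7-T vs. Q7-C (adjusted p = 0.105 and 0.153). The log2 ratio of the summed members with treatment was 2.32 (STHdhQ7) and 3.31 (STHdhQ111, 3.32 for the whole cluster) on TPM, against 2.59 and 3.68 on TMM-scaled CPM.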

Other observations

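Between the genes of the cluster lie 2 pseudogenes of other names. Gm18445 had mean levels of 0.0719 TPM in Q7-C, 0.973 in Q7-T and 3.70 in Q111-T and was listed at 0 in Q111-C. Gm7897 had 0.535 TPM in Q7-T and was listed at 0 in the other groups.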
